A study of Mus musculus with 6 samples.

Results

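Lct, Dsp and Dsc1 are 3 of the 637 genes listed in the authors' deposited table as differing between ischemic and sham-operated mouse hippocampus. They were taken by symbol: Lct encodes lactase and is used as a marker of dentate granule cells, and Dsp and Dsc1 encode desmosome proteins. They were chosen by the log2 fold changes and adjusted p-values of this comparison, so these values are given as a description and no test was added. RNA sequencing was done on the hippocampus of wild-type C57BL/6 mice aged 56 days. The ischemia group (3 samples) had focal middle cerebral artery occlusion (MCAO), a stroke model that blocks a large forebrain artery, and the sham group (3 samples) had a sham operation. Both groups carry the time 2 h in their titles, without saying whether it is a length of occlusion or a delay, and the labels give neither the hemisphere nor any reperfusion.

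Desmosomes are spot-like junctions that hold neighbouring cells together and are best known from skin and heart. Their cadherins, the desmocollins (such as Dsc1) and desmogleins, bridge the gap between cells. Plakoglobin and the plakophilins couple these cadherins to desmoplakin (Dsp), a large plakin protein that anchors the junction to intermediate filaments. Dsc1 is best known from the upper layers of the epidermis. Lactase splits milk sugar at the brush border of the small intestine. In the mouse brain, Lct and Dsp transcripts are enriched in granule cells of the dentate gyrus, the neurons that relay cortical input to CA3.

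The deposited values are mean normalised read counts per group, with the authors' log2 fold change, p-value and adjusted p-value. The column headings M2 and S2 were taken to stand for MCAO and sham by their first letters, and each direction below depends on this. The labels do not say that the samples came from separate animals, so the p-values may reflect technical spread alone. Whole reads of single libraries could be separated from the group mean only where the mean was small enough to have 1 solution. The 6 library size factors found in this way lay between 0.837 and 1.205, which is relative depth only; total depth is unknown. The libraries are lettered A to C in each group by falling size factor and cannot be matched to the replicate numbers of the labels. Ischemia library A stood apart for lower genes: among 75 lower genes whose ischemia mean could be separated, it was the highest of the 3 ischemia libraries in 44 and the lowest in 2. Among 66 higher genes it was the highest in 16 and the lowest in 27.

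Transcripts of Lct and Dsp fell to about the same fraction of their sham level. Lct averaged 774 normalised reads in ischemia and 2264 in sham in the authors' deposited table, a log2 fold change of -1.55 (2.92-fold lower, adjusted p = 1.28e-12). Dsp averaged 1027 normalised reads in ischemia and 2911 in sham in the authors' deposited table, a log2 fold change of -1.50 (2.83-fold lower, adjusted p = 8.44e-07). The ischemia mean was thus 34.2% of the sham mean for Lct and 35.3% for Dsp. The authors called 222 genes lower in ischemia, 0.784% of the 28319 genes that their adjusted p-values imply were tested. In either direction together, 637 genes (2.25%) were called. The 3 genes are among them by the way they were chosen, and nothing is read from that count. In a bulk sample, fewer cells of a type and less RNA per cell cannot be told apart.

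**Figure D1:**
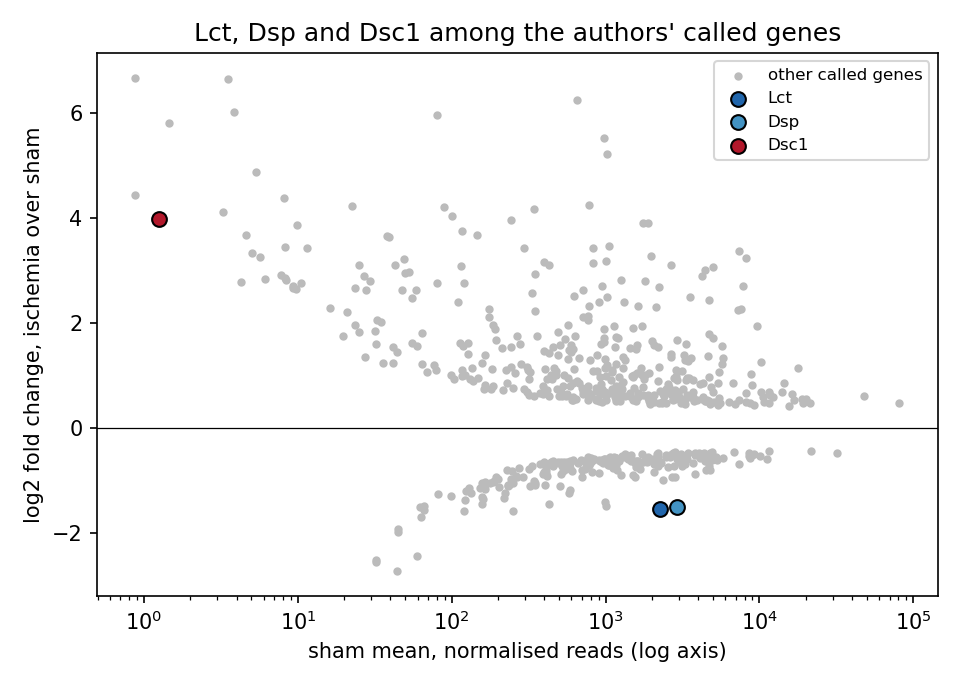
Each point is a gene called by the authors, with its sham mean in normalised reads on a log axis and its log2 fold change (ischemia over sham) on the vertical axis; genes listed at 0 in sham are left out. Lct and Dsp lie at -1.55 and -1.50, below the other lower genes of similar sham level, and Dsc1 lies at 3.98 near the left edge.

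The pair combined a large fall with a high count of reads per gene, not adjusted for length, as few other lower genes did. By the authors' deposited table, Lct had the smallest p-value of the 222 lower genes and Dsp the 8th smallest. By size of fall they ranked 11 and 13. In the authors' deposited table, none of the other 11 genes among the 13 largest falls had a sham mean above 250.3 normalised reads. Of the 69 lower genes with a sham mean of at least 2000 normalised reads, the next largest fall after Lct and Dsp was that of Amer3, which encodes a protein related to the Wnt regulator AMER1. Amer3 averaged 1186 normalised reads in ischemia and 2357 in sham in the authors' deposited table, 1.99-fold lower (adjusted p = 1.24e-08). Of the 48 lower genes with a log2 fold change of -1 or below, the authors' deposited table gives 3 a sham mean of at least 1000 normalised reads. The member of these besides Lct and Dsp, a gene with no symbol, averaged 358 normalised reads in ischemia and 1005 in sham by the authors' deposited table, a log2 fold change of -1.49 (adjusted p = 0.0243). These ranks rest on the values that chose the pair. The limits of 13 genes and 2000 normalised reads also lie at or just below its own values, so these counts favour it. By sham mean alone, Lct ranked 61 and Dsp 42 of the 222 lower genes.

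Both genes make long transcripts, so levels were also set per length. Divided by the longest protein-coding transcript in GENCODE M21 (6.17 kb for Lct, 9.59 kb for Dsp), Lct had 125 normalised reads per kb in ischemia and 367 in sham. On the same scale Dsp had 107 normalised reads per kb in ischemia and 303 in sham. In ischemia, 26.8% of the 564 called genes with a known length had a lower level per kb than Lct, and 21.8% a lower level than Dsp. In sham these shares were 58.9% for Lct and 52.8% for Dsp. The median transcript length was 4315 bases among lower called genes and 3097 among higher ones, so both genes are longer than the middle of either group. Exons of Lct overlap no other gene in that annotation. An exon of Dsp overlaps Gm10129 on the opposite strand by up to 499 bases, and the sources used here do not say whether reads were counted by strand.

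Single libraries could not be fixed for Lct and Dsp, because several sets of whole reads return the same mean. For Lct in ischemia 4 such sets were left. The most even had 607, 757 and 959 normalised reads in libraries A, B and C, and the most uneven 1360, 94.5 and 868. For Dsp in ischemia 11 sets were left, with the highest library anywhere between 1185 and 2994 normalised reads. For the sham means 137 sets were left for Lct and 257 for Dsp, so the spread between sham libraries is not known and overlap of the groups could not be judged. Counting error was small: at least 1943 reads in ischemia and 5938 in sham stood behind the Lct means, and at least 2576 in ischemia and 7634 in sham behind the Dsp means. The counting error alone was thus at most 2.27% of the ischemia mean and 1.30% of the sham mean for Lct. For Dsp it was at most 1.97% of the ischemia mean and 1.14% of the sham mean. It says nothing of the spread between samples.

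The stretches just before the start of Lct and Dsp are shown because these transcripts fell alike, and they differ in base composition. Each is the 250 bases ahead of the RefSeq start on build GRCm38.p6, at chr1:128328319-128328568 on the minus strand for Lct and chr13:38151044-38151293 on the plus strand for Dsp. The authors' files use another annotation. Both are written 5′ to 3′ on the gene's strand, and capitals mark matches to any of the 6 motifs searched.
Lct: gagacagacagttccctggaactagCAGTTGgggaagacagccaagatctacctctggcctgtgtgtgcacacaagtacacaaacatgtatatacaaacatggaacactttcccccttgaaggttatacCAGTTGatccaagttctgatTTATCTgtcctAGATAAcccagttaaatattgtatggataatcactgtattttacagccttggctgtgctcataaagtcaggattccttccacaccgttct
Dsp: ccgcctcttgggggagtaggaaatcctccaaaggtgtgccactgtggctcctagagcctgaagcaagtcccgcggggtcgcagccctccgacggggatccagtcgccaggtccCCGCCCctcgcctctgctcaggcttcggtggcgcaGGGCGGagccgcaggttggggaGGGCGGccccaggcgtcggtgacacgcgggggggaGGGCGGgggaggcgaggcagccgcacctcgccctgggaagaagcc
The Lct stretch is 42.8% G and C with 1 CG pair, and the Dsp stretch is 72.4% G and C with 22 CG pairs, where the median over 32841 RefSeq promoters of this length is 52.4% and 6 CG pairs. Lct held 2 E-boxes (CANNTG, bound by basic helix-loop-helix factors) and 2 GATA sites (AGATAA). Dsp held neither and had 4 GC boxes (GGGCGG), which Lct lacked. On both strands together, 66.2% of all promoters held at least 1 E-box, 9.99% at least 1 GATA site and 32.7% at least 1 GC box. The share with as many matches as Lct or Dsp was not computed. The marked matches do not overlap. The TATA box (TATAAA, 12.4% of all promoters), the AP-1 site (TGANTCA, 6.75%) and the cAMP response element (TGACGTCA, 1.55%) had 0 matches in either stretch. A match is a string of letters and not a shown binding site.

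Dsc1 went the other way from Dsp, at a level that was lower by far. It had 16, 21 and 19 whole reads in ischemia libraries A, B and C, against 1, 2 and 1 in sham libraries A, B and C. After scaling these were 13.3, 23.9 and 22.7 normalised reads in ischemia and 0.833, 1.81 and 1.14 in sham. Every ischemia library was above every sham library, and the lowest of the ischemia libraries was A. Each named gene below that could be separated in both groups also lacked overlap, so this is not particular to Dsc1. The means were 19.97 ± 5.82 normalised reads in ischemia and 1.26 ± 0.497 in sham (SD, n = 3 each, from the separated reads). The authors' deposited table gives a log2 fold change of 3.98 for Dsc1 (15.8-fold higher, adjusted p = 0.0162). The authors called 415 genes higher, 1.47% of those tested, and Dsc1 is one by choice.

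The size of the Dsc1 rise is poorly fixed, since the sham group held 4 reads in all. With 56 reads in ischemia against 4 in sham, the ratio scaled by the summed size factors was 15.3, with an exact 95% interval of 5.64 to 57.9 for counting error only. Leaving out single libraries moved its log2 fold change between 3.76 and 4.34. At its highest, Dsc1 stayed scarce: 2 of the 415 higher genes had a lower ischemia mean, and 4 of all 637 genes a lower sham mean. Per length it had 4.89 normalised reads per kb in ischemia and 0.309 in sham, using a 4.08 kb transcript. Its exons overlap no other gene in GENCODE M21.

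**Figure D2:**
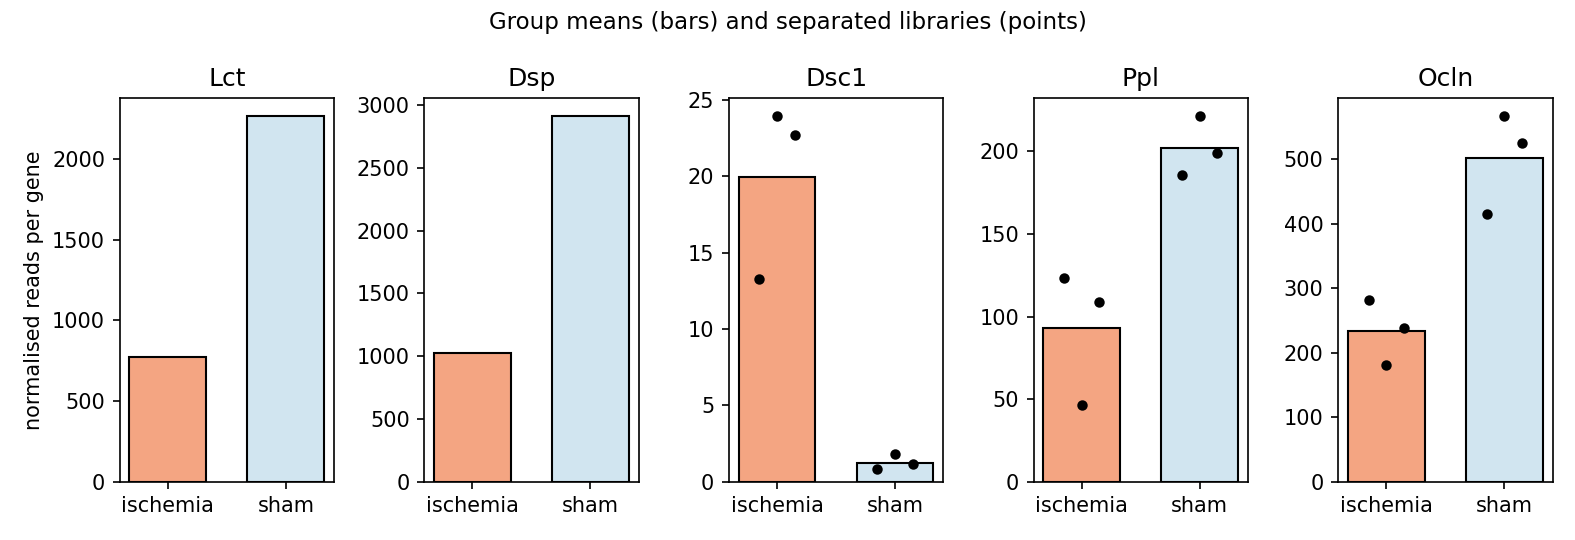
Bars are the authors' group means in normalised reads per gene, ischemia left of sham, each panel with its own axis from 0; points are the separated libraries A, B and C from left to right, where the mean had 1 solution. Dsc1 had 19.97 in ischemia against 1.26 in sham, while Lct, Dsp, Ppl and Ocln were lower in ischemia, and the points of the groups do not overlap in the 3 panels that have them. Those 3 genes were all called by the authors, so the lack of overlap sets none of them apart.

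The 2 desmosome genes therefore moved in opposite directions. The log2 fold change of Dsp minus that of Dsc1 was -5.49, and no test of this difference was possible because Dsp has no values per library. In absolute terms the contrast is uneven: on the scale per kb, Dsp had 107 in ischemia and 303 in sham, and Dsc1 had 4.89 in ischemia and 0.309 in sham.

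Of 18 desmosome genes listed, Dsc1 was higher, Dsp and Ppl were lower and 15 were not called. Without Dsp and Dsc1, which were chosen for their values, 1 of 16 was called (6.25%), against 2.25% of all genes tested. The uncalled ones are the other desmocollins, the desmogleins, plakoglobin (Jup), the plakophilins, Perp and envoplakin (Evpl). Absence from the table shows neither a level nor a lack of change. Ppl encodes periplakin, a plakin related to desmoplakin that is found at desmosomes and in the envelope of skin cells. It had 124, 46.7 and 109 normalised reads in ischemia libraries A, B and C, and 186, 221 and 199 in sham libraries A, B and C. The groups did not overlap, and ischemia library B was the lowest. Its log2 fold change was -1.12 in the authors' deposited table (2.17-fold lower, adjusted p = 0.00415). It was -0.80 without ischemia library B and -1.38 without ischemia library A. The median of the 3 called members was -1.12, against 0.66 over all 637 called genes. It is the value of Ppl itself, because Dsp and Dsc1, which were chosen for their values, lie to either side. It therefore shows no tendency of the list.

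Among neighbouring kinds of junction and filament, 5 of 53 genes were called (9.43%), 4 higher and 1 lower, against 2.25% of all genes tested. These lists were picked by hand and the difference in share was not tested. Of 16 tight junction genes, occludin (Ocln) fell, Cldn11 rose and 14 were not called. Ocln, a membrane protein of tight junctions, had 281, 181 and 239 normalised reads in ischemia libraries A, B and C, and 415, 566 and 525 in sham libraries A, B and C. Every ischemia library was below every sham library, with a log2 fold change of -1.10 in the authors' deposited table (adjusted p = 0.000197). Cldn11, the claudin of myelin, averaged 12338 normalised reads in ischemia and 9156 in sham in the authors' deposited table (1.35-fold higher, adjusted p = 0.0428). Of 21 adherens junction genes the authors' deposited table calls the adhesion molecule gene Nectin2, which was 1.54-fold higher (adjusted p = 0.0340), and no classical cadherin or catenin on the list was. Of 16 intermediate filament genes, the filaments to which desmoplakin can bind, 2 neurofilament subunits rose and 14 were not called. By the authors' deposited table Nefm rose 1.77-fold (adjusted p = 0.00186) and Nefl 1.60-fold (adjusted p = 0.0376), though their annotated exons overlap each other on opposite strands by up to 1108 bases.

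Lct was the 1 called gene of 12 for disaccharidases and the intestinal brush border. The other disaccharidases (Sis, Mgam and Treh) and the intestinal factor gene Cdx2 were not called. Lct was chosen for its values, and without it 0 of 11 were called, where 2.25% of all genes tested were.

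**Figure D3:**
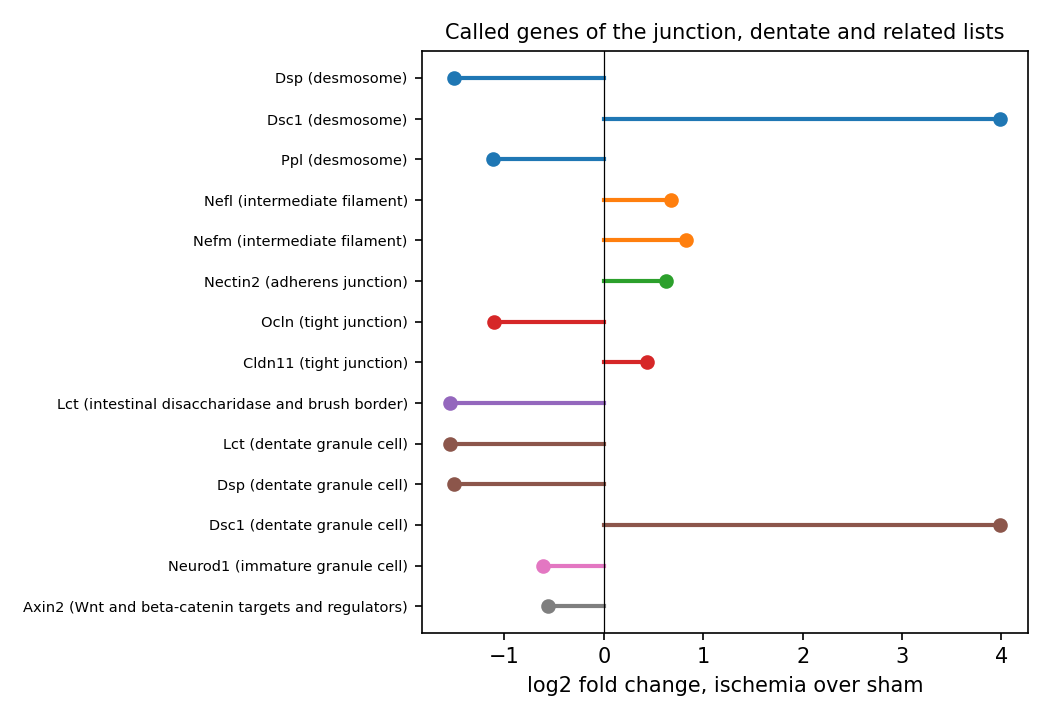
Each line ends at the log2 fold change (ischemia over sham) of a called gene in the authors' deposited table, with its list in brackets and in colour; Lct, Dsp and Dsc1 appear once for each list they are on. Dsc1 at 3.98 stands apart from the falls of Dsp, Ppl, Ocln and Lct, between -1.55 and -1.10.

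Whether other dentate markers moved with Lct and Dsp was examined with 20 genes. Lct and Dsp were lower, Dsc1 was higher and 17 were not called. Dsc1 is on this list by the choice of genes and is not an established marker of granule cells, and without it the list has 2 lower and 0 higher of 19. Lct and Dsp were likewise chosen for their values, and without all 3 genes the list has 0 called of 17. With 2.25% of all genes tested called, 0 of 17 is near the background and is no result about granule cells. The uncalled genes include Prox1, the factor that defines granule cell identity, the calcium-binding protein gene Calb1, and the granule cell genes C1ql2, Tdo2 and Pdyn. These calls do not place the Lct and Dsp reads in any cell type. Of 7 immature granule cell genes 6 were not called, and the authors' deposited table gives the proneural factor Neurod1 as lower (542 normalised reads in ischemia and 831 in sham, adjusted p = 0.0407). Annotated exons of Neurod1 overlap Cerkl on the same strand by up to 201 bases and Gm26755 on the opposite strand by up to 154. Of 19 genes of Wnt signalling, which acts through the plakoglobin relative beta-catenin, 18 were not called, and the authors' deposited table gives the feedback inhibitor Axin2 as 1.48-fold lower (adjusted p = 0.0306). With 2.25% of all genes tested called, 1 call on a list as short as either of these is no result about the list.

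Markers of other cells that could carry desmosomes or sit beside the dentate gyrus had 0 called members. This held for CA1 pyramidal cells (8 genes), CA3 pyramidal cells (8), mossy cells (7), choroid plexus (8) and leptomeninges (10). At 2.25% of all genes tested, 0 of these 41 is near the background and is no result about these cells. Cdh1, the epithelial cadherin of the arachnoid barrier, was among the uncalled ones. Levels of uncalled genes are not in the table, so the part of such cells in the 3 genes was not tested.

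Likeness to other genes was measured as the distance between log2 fold changes, over 1 contrast of 2 group means. The named genes nearest to Lct were Ston1, Plscr2, Tm6sf2 and Dsp, the farthest of them 0.045 away on the log2 scale. Nearest to Dsp were Plscr2, Lct, Il20rb and Ccnjl, the farthest 0.061 away. Apart from Lct and Dsp these were less abundant transcripts, with a sham mean of at most 430 normalised reads. Ston1, which encodes the endocytic adaptor stonin 1, had 97.1, 78.6 and 76.5 normalised reads in ischemia libraries A, B and C, and 242, 266 and 244 in sham libraries A, B and C. The ischemia libraries were close together and all below the sham libraries. Il20rb, an interleukin receptor subunit gene, had 99.6, 28.5 and 45.4 normalised reads in ischemia libraries A, B and C, and 153, 175 and 145 in sham libraries A, B and C. Here ischemia library A was far above the other two, and the log2 fold change moved from -1.45 to -2.10 without it. Without ischemia library B it moved the other way, to -1.12. For Tm6sf2, a lipid metabolism gene, it moved from -1.59 to -2.18 without the same library. Ccnjl and Plscr2 likewise had no overlap between ischemia and sham libraries. No named gene that could be separated in both groups had any overlap. All of these are genes called by the authors, so the lack of overlap sets none of them apart. Its share over all called genes was not computed.

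The genes nearest to Dsc1 were 1700016P03Rik, Mir212, the zinc finger factor gene Egr4 and the neuronal pentraxin gene Nptx2, the farthest 0.072 away on the log2 scale. Their levels were of another order: Egr4 averaged 28505 normalised reads in ischemia and 1887 in sham, and Nptx2 26499 in ischemia and 1759 in sham, in the authors' deposited table. A like fold change with so different a level is a likeness of ratio only.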

How the data were processed

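The authors deposited 1 table of called genes with 637 rows, of which 581 have a symbol; it holds 0 columns of single samples. Per the file headers and its values, the deposited read signal of a gene is the mean normalised read count of the 3 samples in a group. The deposited log2 fold change equals the log2 ratio of the 2 means to within 4.97e-05, and the p-value and adjusted p-value are the authors'. Bowtie 0.12.2 and build mm8 are named in the submitters' processing notes without a role. Gene identifiers carry an Ensembl BALB/cJ strain prefix in 612 rows, so another annotation was counted. The sources used here do not state the counting program, strand, normalisation or test.

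The number of genes tested was inferred by finding the number whose Benjamini-Hochberg adjustment returns the deposited values, which 28319 did in 636 of 637 rows. Whole reads were separated from means of at most 600 by lattice reduction. Each such mean adds up whole counts of 3 libraries, each times the fixed step of its library, and 1 set of steps above 0.2 was found per group. A single solution was found for 141 of 202 ischemia means and 203 of 239 sham means, and several for the rest. On 4 simulated tables of 637 genes, the single solution was right for all 649 means that had one. These tables were built in the assumed form, so they cannot show that the deposited means have it. Their size factors came from a slightly narrower range than those found, and their steps were fitted on smaller means.

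The members and gene lists were chosen with earlier results of these data known. The 165 genes on 13 lists gave 5 higher and 6 lower calls. Named are the members, called genes of these lists and the 4 called genes with a symbol nearest to each member by log2 fold change; Amer3 was named after its values were seen. Motifs were also chosen after the data were seen. Lengths came from GENCODE M21 by symbol, for 564 genes, and promoters from RefSeq (GRCm38.p6), for Lct and Dsp. Python 3.11.15, numpy 2.4.6, scipy 1.17.1, pandas 2.3.3, sympy 1.14.0 and matplotlib 3.10.9 were used.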

Additional observations from a re-analysis of the deposited data

How the results depend on the processing

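No paired analysis was possible because the deposited columns are group means without replicate numbers, and leaving out single libraries could not be done for Lct, Dsp or the difference between Dsp and Dsc1. Lct and Dsp kept their direction and size with a pseudocount of 1 or 10 and passed an adjusted p of 0.01. Neither check could have failed: their means are far above 10, and their adjusted p-values are among the values that chose them. Dsc1 depended on its few sham reads: its log2 fold change of 3.98 was 1.41 with a pseudocount of 10, and Dsp minus Dsc1 was then -2.91; leaving out single libraries gave 3.76 to 4.34. At an adjusted p of at most 0.01, a threshold added after the data were seen, the Dsc1 value of 3.98 no longer passed. That threshold left 263 higher and 98 lower genes, and a log2 fold change of 1 or more in size was met by 223 higher and 48 lower genes. Requiring a mean of at least 50 in the higher group, or the stricter adjusted p, left 0 higher genes on the desmosome and dentate granule lists, which lost Dsc1. Leaving Dsc1 off the dentate list, also added later, gave 0 higher as well. The lower counts of both lists stayed at 2 under each of these settings. The lower dentate genes are Lct and Dsp, and the lower desmosome genes are Dsp and Ppl. Lct and Dsp were chosen for these values and had to pass, so the steady counts are no support for either list. Single library values exist for small means only, so the spread behind Lct and Dsp is not known.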
